A study of Homo sapiens with 4 samples.

Results

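Retinoic acid, the active form of vitamin A, reaches its nuclear receptors through a short chain of proteins, and the mRNAs of 9 genes of that chain were followed here: the carriers CRABP1 and CRABP2, the enzymes ALDH1A3 and CYP26B1, and the receptors RARA, RARB, RARG, RXRA and RXRB. The set was chosen by gene name and was led by CRABP2, which was selected on its readout in these same libraries, so its differences are given as a description with no test. Of the 9 genes, 7 had values among the 12033 genes measured, and CRABP1 and CYP26B1 were not analysed here. The cells were BJ cells, a line of human fibroblasts immortalized with hTERT, which carried an inducible RASG12V and had been treated with 4-OHT for 14 days to switch it on, a state that ends in oncogene-induced senescence (OIS). All 4 groups shared this induction and differed in the sgRNA delivered with Cas9. The paper reports that cells with either enhancer guide or the FOXF1 guide bypass OIS and keep proliferating. A difference from sgRNA-NT cells can thus not be told apart from a difference between proliferating and senescent cells. The groups were sgRNA-AP1-69 and sgRNA-AP1-71, which cut the AP-1 site of the enhancer Enh.AP1.OIS1, sgRNA-FOXF1, which cuts the FOXF1 gene assigned to that enhancer, and sgRNA-NT, the non-targeting control. Guides of this kind leave a mixed population of small insertions and deletions rather than a clone. The question of the design was which genes differ when the enhancer or FOXF1 is cut during OIS, and uninduced cells were not analysed here.

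Each group was 1 library of polyadenylated RNA, so no value has a replicate error and no test was possible. Values are reads per kilobase of transcript scaled to library size (RPKM), quantile-normalized by the authors over the 4 libraries, rounded to 1 decimal and set to a floor of 1 RPKM, at which 2421 genes lay in all 4 libraries. Read counts were not used here, so the depth is unknown. The label of the FOXF1 guide could not be checked on mRNA, since edited transcripts are still counted: FOXF1 mRNA was at 11.1 RPKM in sgRNA-AP1-69 cells, 7.8 in sgRNA-AP1-71 cells, 25.0 in sgRNA-FOXF1 cells and 29.6 in sgRNA-NT cells. HRAS, the family member that the induced transgene encodes, was at 446.4 RPKM in sgRNA-AP1-69 cells, 427.4 in sgRNA-AP1-71 cells, 707.6 in sgRNA-FOXF1 cells and 829.4 in sgRNA-NT cells, and its part in the differences below was not tested. Of 10 fibroblast markers all had values and 8 were above the floor in every library. The summed levels of the 10 were 5100.6 to 5368.7 RPKM in the targeted libraries, against 3554.4 RPKM in sgRNA-NT cells. Single markers went in different directions. COL1A1 had log2 ratios to sgRNA-NT of -1.17, -1.50 and -0.06 in sgRNA-AP1-69, sgRNA-AP1-71 and sgRNA-FOXF1 cells. COL1A2 was at -0.60, -0.78 and 0.03 in that order, and LUM at 1.85, 1.78 and 2.51. Of the markers of other cell types, 1 of 8 for keratinocytes (KRT10, 14.2 to 19.7 RPKM), 1 of 6 for melanocytes (MITF, 1.0 to 3.1 RPKM), 0 of 5 for endothelium and 1 of 5 for blood (CD14, 6.0 to 9.8 RPKM) had values.

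In the textbook pathway, retinol is oxidized reversibly to retinal, ALDH1A enzymes oxidize retinal irreversibly to retinoic acid, and CYP26 enzymes break retinoic acid down. Cellular retinoic acid-binding proteins hold the ligand in solution, and CRABP2 passes it on to the retinoic acid receptors (RARs) in the nucleus, whereas CRABP1 is linked to its breakdown. RARs act as heterodimers with retinoid X receptors (RXRs) on repeated half-sites in DNA, holding corepressors such as NCOR1 without ligand and coactivators such as EP300 with it. In skin, RARG and RXRA are known as the main receptors, and CRABP2 is known as a gene that retinoic acid raises.

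The sequences just upstream of the members were searched for such sites, because RARB carries the textbook retinoic acid response element and CRABP2 showed the largest differences of the set. The 250 bases before each canonical start (GRCh37, GENCODE) were searched on both strands for AP-1 sites (TGACTCA or TGAGTCA), forkhead sites (GTAAACA or ATAAACA), receptor half-sites (AGGTCA or GGTTCA or AGTTCA) and direct repeats of 2 half-sites with a spacer of 1, 2 or 5 bases, each of which contains half-sites by construction. Of 19874 protein-coding genes, 3.05% held the AP-1 letters, 4.36% the forkhead letters, 20.8% a half-site and 0.141% a direct repeat. RARB (chr3:25469504-25469753, plus strand) was the only member with a direct repeat, which starts 53 bases before the transcript start and is in capitals, while CRABP2 (chr1:156675376-156675625, minus strand) held none of the 4 kinds of letters. Both are printed 5′ to 3′ on the strand of the gene.
RARB: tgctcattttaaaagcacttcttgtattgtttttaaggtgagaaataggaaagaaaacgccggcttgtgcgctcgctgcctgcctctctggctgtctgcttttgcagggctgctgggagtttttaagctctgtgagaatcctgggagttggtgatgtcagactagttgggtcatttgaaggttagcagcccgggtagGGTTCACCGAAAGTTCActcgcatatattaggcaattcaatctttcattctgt
CRABP2: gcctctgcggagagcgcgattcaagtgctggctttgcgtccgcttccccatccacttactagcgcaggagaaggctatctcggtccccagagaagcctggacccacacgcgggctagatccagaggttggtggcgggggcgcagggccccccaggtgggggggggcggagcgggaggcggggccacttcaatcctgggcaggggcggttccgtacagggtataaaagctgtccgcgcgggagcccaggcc
RARA held 1 half-site, starting 230 bases before its start, and ALDH1A3, RARG, RXRA and RXRB held no match. These matches are letters in a window of 250 bases and say nothing about binding, and sequences further away were not searched.

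CRABP2 (ENSG00000143320; chromosome 1, 156669398 to 156675375, minus strand, 4 exons) encodes the carrier that hands retinoic acid to the RARs. Its mRNA was at 82.6 RPKM in sgRNA-AP1-69 cells, 141.9 RPKM in sgRNA-AP1-71 cells and 398.8 RPKM in sgRNA-FOXF1 cells, against 19.0 RPKM in sgRNA-NT cells. All 3 targeted libraries were thus above the control library, and the FOXF1 guide stood above both enhancer guides. In bulk RNA, more cells with the mRNA and more mRNA per cell cannot be told apart. The fold over sgRNA-NT was 4.35, 7.47 and 21.0, which is 2.12, 2.90 and 4.39 on the log2 scale, and rounding to 1 decimal moves none of them by more than 0.01. By level, CRABP2 ranked 487, 282 and 88 among 12033 genes in the targeted libraries and 2026 in sgRNA-NT cells. Among the 7596 genes whose mean reached 2 RPKM, which were compared throughout, its ratio ranked 6 in sgRNA-AP1-69 cells, 3 in sgRNA-AP1-71 cells and 1 in sgRNA-FOXF1 cells. These ranks describe the gene that led the choice of the set, and the 3 ratios share the sgRNA-NT library.

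**Figure D1:**
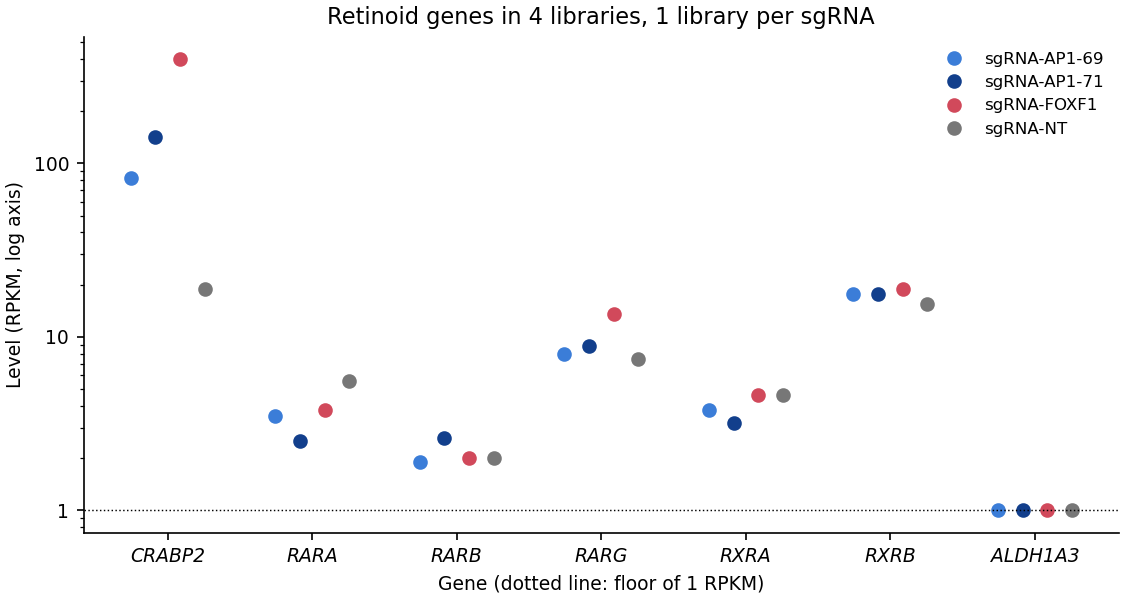
Level of each of the 7 genes with values (RPKM, log axis), 1 point per library, with the floor of 1 RPKM dotted. CRABP2 spans 19.0 to 398.8 RPKM, whereas the receptors stay between 1.9 and 18.9 RPKM and ALDH1A3 lies on the floor.

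The FOXF1 guide and the enhancer guides also differed from each other at CRABP2. In sgRNA-FOXF1 cells its level was 3.68-fold above the mean of the log2 values of both enhancer guides, a log2 difference of 1.88 that ranked 3 of 7596 genes. The enhancer guides were themselves 1.72-fold apart, as CRABP2 was 0.78 higher on the log2 scale in sgRNA-AP1-71 cells than in sgRNA-AP1-69 cells. Between these libraries, which were aimed at 1 enhancer, genes differed by an SD of 0.29, and where the mean reached 50 RPKM, 95% of the log2 differences lay between -0.60 and 0.45. CRABP2 thus differed between the guides by more than 95% of genes of its level did. Its level was above sgRNA-NT with both guides, which the choice of this gene on its readout favours, and the single sgRNA-NT library has no spread.

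**Figure D2:**
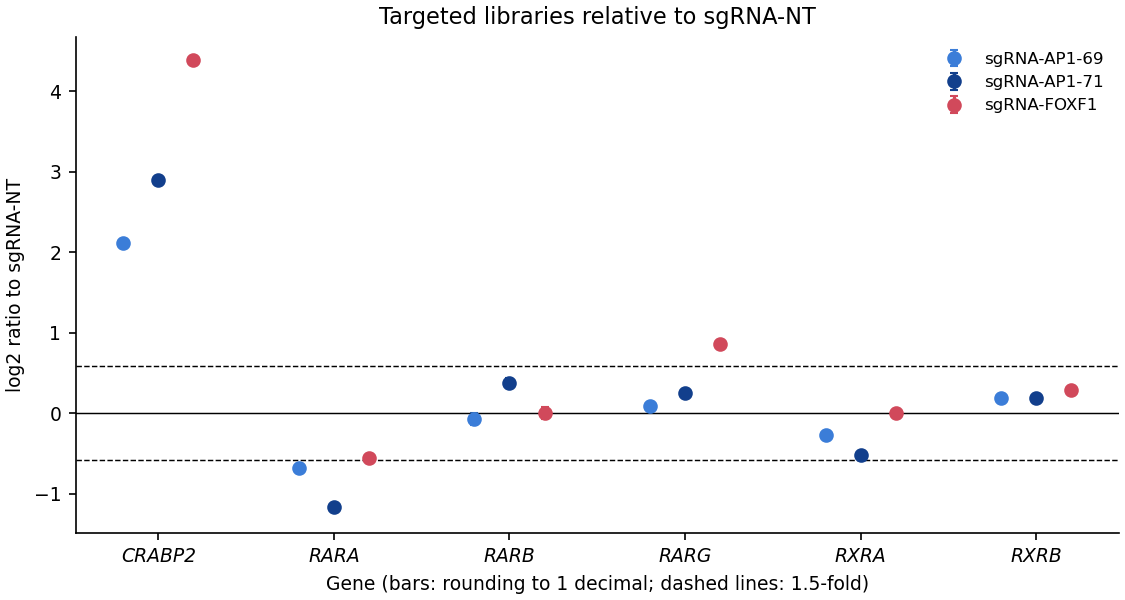
Log2 ratios of the 6 genes compared, each targeted library over sgRNA-NT, with bars for rounding to 1 decimal (mostly smaller than the points) and dashed lines at 1.5-fold. CRABP2 lies at 2.12, 2.90 and 4.39, and of the receptors only RARA (lower with both enhancer guides) and RARG (higher in sgRNA-FOXF1 cells) pass a dashed line.

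CRABP2 has a short transcript of 974 nt, and length went with the ratios over the whole table. The log2 ratio to sgRNA-NT had a Spearman correlation with the length of the canonical transcript of -0.50 in sgRNA-AP1-69 cells, -0.44 in sgRNA-AP1-71 cells and -0.45 in sgRNA-FOXF1 cells, over 7566 genes that share the same 4 libraries. After the spline trend with length was taken off, the log2 ratios of CRABP2 were 1.79, 2.53 and 4.07. The difference between sgRNA-FOXF1 and the enhancer guides had a correlation with length of -0.02, and CRABP2 was at 1.91 there after the same step. The 20 mitochondrially encoded RNAs compared also moved with the groups, with median log2 ratios of -0.58, -1.34 and -0.62 in the targeted libraries. The part of RNA quality in these values was not tested.

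The enzymes of the set gave little signal. ALDH1A3 (ENSG00000184254; chromosome 15, 101420036 to 101456831), which makes retinoic acid from retinal, was at the floor of 1.0 RPKM in all 4 libraries, so that no fold can be given and a level below the floor cannot be told from none.

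The RARs were measured at low levels, and each followed its own order. RARA (ENSG00000131759; chromosome 17, 38465432 to 38513895), the RAR with the widest expression, was at 3.5 RPKM in sgRNA-AP1-69 cells, 2.5 in sgRNA-AP1-71 cells and 3.8 in sgRNA-FOXF1 cells, against 5.6 RPKM in sgRNA-NT cells. All 3 targeted libraries were below the control, by 1.60-, 2.24- and 1.47-fold, or log2 ratios of -0.68, -1.16 and -0.56. Counted from the lowest of the 7596 genes in each comparison, RARA ranked 574 in sgRNA-AP1-69 cells, 322 in sgRNA-AP1-71 cells and 1055 in sgRNA-FOXF1 cells, so that in each comparison many other genes had lower ratios. On a log2(RPKM + 1) scale RARA was no longer past 1.5-fold in sgRNA-AP1-69 cells. The exons of RARA overlap 291 bases of an uncharacterized gene on the other strand, and the sources differ on whether the library kit kept strand.

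RARB (ENSG00000077092; chromosome 3, 25469754 to 25639423), the receptor gene whose upstream direct repeat is printed above and which is a textbook target of its own ligand, was at 1.9 RPKM in sgRNA-AP1-69 cells, 2.6 in sgRNA-AP1-71 cells and 2.0 in sgRNA-FOXF1 cells, against 2.0 RPKM in sgRNA-NT cells. The libraries lay close together just above the floor, with log2 ratios of -0.07, 0.38 and 0.00. None passed 1.5-fold, and the step of 1 decimal in the values is large at this level.

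RARG (ENSG00000172819; chromosome 12, 53604353 to 53625993), the main RAR of skin, was at 8.0 RPKM in sgRNA-AP1-69 cells, 8.9 in sgRNA-AP1-71 cells and 13.6 in sgRNA-FOXF1 cells, against 7.5 RPKM in sgRNA-NT cells. The FOXF1 library stood apart, 1.81-fold above sgRNA-NT (log2 ratio 0.86), whereas the enhancer guides were at 0.09 and 0.25. In sgRNA-FOXF1 cells it was also 1.61-fold above the enhancer guides, a log2 difference of 0.69. RARG ranked 353 from the highest of 7596 genes in sgRNA-FOXF1 over sgRNA-NT and 304 in sgRNA-FOXF1 over the enhancer guides, so that in both comparisons many other genes had higher ratios.

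Together the RAR mRNAs summed to 13.4 RPKM in sgRNA-AP1-69 cells, 14.0 in sgRNA-AP1-71 cells and 19.4 in sgRNA-FOXF1 cells, against 15.1 RPKM in sgRNA-NT cells. RARG held 59.7%, 63.6% and 70.1% of this sum in the targeted libraries, against 49.7% in sgRNA-NT cells. RARA held 26.1%, 17.9% and 19.6%, against 37.1% in sgRNA-NT cells, and RARB held 14.2%, 18.6% and 10.3%, against 13.2% in sgRNA-NT cells. The ratio of RARG to RARA was accordingly 2.29, 3.56 and 3.58, against 1.34 in sgRNA-NT cells, so that RARG was the most abundant RAR mRNA in every library and by a wider margin in the targeted ones. These shares describe mRNA per length, and neither protein nor receptor activity was measured.

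**Figure D3:**
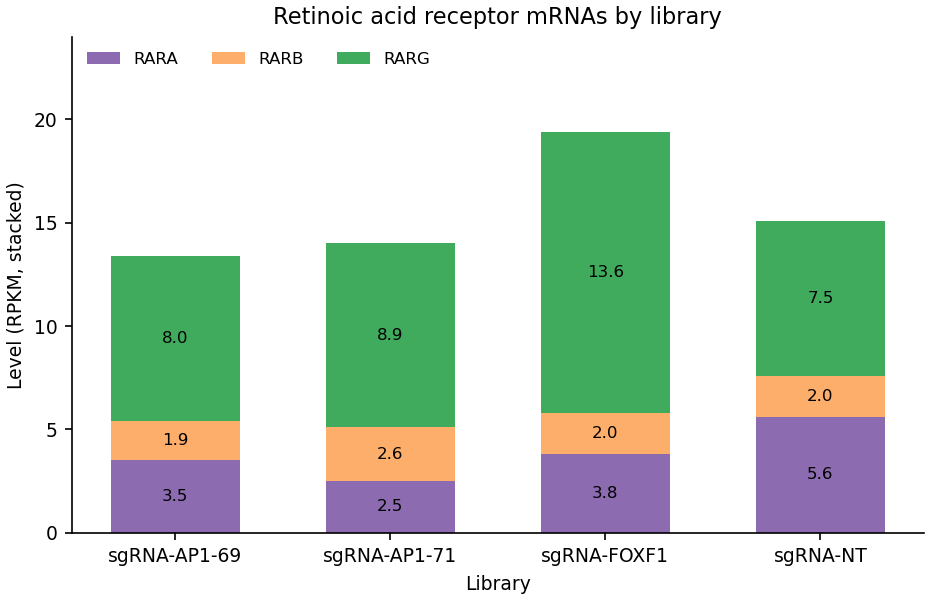
Stacked levels (RPKM) of RARA, RARB and RARG in each library, with each value printed in its segment. RARG is the largest segment in all 4 libraries (7.5 to 13.6 RPKM), and RARA is smaller in the 3 targeted libraries (2.5 to 3.8 RPKM) than in sgRNA-NT cells (5.6 RPKM).

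The RXRs, the shared partners of the RARs and of several other nuclear receptors, differed less. RXRA (ENSG00000186350; chromosome 9, 137218301 to 137332431) was at 3.8 RPKM in sgRNA-AP1-69 cells, 3.2 in sgRNA-AP1-71 cells and 4.6 in sgRNA-FOXF1 cells, against 4.6 RPKM in sgRNA-NT cells, giving log2 ratios of -0.28, -0.52 and 0.00. RXRB (ENSG00000204231; chromosome 6, 33161365 to 33168442) was at 17.7, 17.6 and 18.9 RPKM in the targeted libraries in that order, against 15.5 RPKM in sgRNA-NT cells, giving log2 ratios of 0.19, 0.18 and 0.29. No RXR ratio passed 1.5-fold, although RXRA in sgRNA-AP1-71 cells and RARA in sgRNA-FOXF1 cells were past it in the lower direction once ratios were centred on the median of all genes. RXRB was the most abundant of the 5 receptor mRNAs in every library, above 71.7%, 71.5% and 73.2% of the genes compared in the targeted libraries and above 68.1% in sgRNA-NT cells. Between the enhancer guides, sgRNA-AP1-71 over sgRNA-AP1-69, the log2 differences of the receptors were -0.49 for RARA, 0.45 for RARB, 0.15 for RARG, -0.25 for RXRA and -0.01 for RXRB, all inside the range that held 95% of genes of their level. RXRA and RXRB together summed to 21.5, 20.8 and 23.5 RPKM, against 20.1 RPKM in sgRNA-NT cells. CRABP2 stood further above the receptors in the targeted libraries: it was at 6.16, 10.1 and 20.6 times the RAR sum there, against 1.26 times in sgRNA-NT cells.

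The counts of members past 1.5-fold are small and stand beside those of all genes compared. In sgRNA-AP1-69 cells, 1 of 6 members was higher (CRABP2) and 1 was lower (RARA), where 8.18% of all genes compared were higher and 9.93% lower. In sgRNA-AP1-71 cells the same members were counted, where 14.0% of all genes were higher and 14.7% lower. In sgRNA-FOXF1 cells, 2 of 6 were higher (CRABP2 and RARG) and 0 lower, where 11.6% of all genes were higher and 13.2% lower. Between sgRNA-FOXF1 and the enhancer guides the counts were again 2 higher (CRABP2 and RARG) and 0 lower, where 5.86% of all genes were higher and 3.54% lower. The median log2 ratio of the 6 members was 0.01, 0.22 and 0.14 in the targeted libraries, beside 0.07, 0.08 and 0.05 over all genes, and that of sgRNA-FOXF1 over the enhancer guides was 0.38, beside -0.03. As CRABP2 was picked for these contrasts, nothing is read from its place in the counts, and without it the 5 receptor genes gave 0 higher with either enhancer guide and 1 in sgRNA-FOXF1 cells.

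The wider pathway was taken from 7 lists of 112 genes, of which 63 had values and 34 were compared, while 13 lay at the floor in all 4 libraries. Of the 34, 1 was higher by 1.5-fold or more and 8 were lower in sgRNA-AP1-69 cells, 6 higher and 9 lower in sgRNA-AP1-71 cells, and 3 higher and 9 lower in sgRNA-FOXF1 cells. These stand beside the shares of all genes given above. Their median log2 ratios were -0.01, -0.15 and -0.10. Genes outside the rule for naming are named below because a count turns on them, after their values were seen.

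Among the carriers, FABP5 is a fatty acid-binding protein that can also carry retinoic acid, to PPARD rather than to the RARs. It was at 1.9 RPKM in sgRNA-AP1-69 cells, 2.2 in sgRNA-AP1-71 cells and 2.6 in sgRNA-FOXF1 cells, against the floor of 1.0 RPKM in sgRNA-NT cells, so at least 1.9-, 2.2- and 2.6-fold higher. Its mean was under 2 RPKM, which keeps it out of the counts. CRABP2 was at 43.5, 64.5 and 153 times the level of FABP5 in the targeted libraries, against at least 19.0 times in sgRNA-NT cells. FABP5 lay at or near the floor in all 4 libraries, so the size of these multiples is uncertain. FABP3, the other intracellular lipid-binding protein with values of 12 in its list, was at 2.1, 1.9 and 1.4 RPKM, against 1.1 RPKM in sgRNA-NT cells. STRA6, the retinol uptake receptor, was at the floor in all 4 libraries.

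Of the enzymes that oxidize retinol or reduce retinal, 11 of 29 had values and 7 were compared, and 0 passed 1.5-fold in sgRNA-AP1-69 or sgRNA-FOXF1 cells. In sgRNA-AP1-71 cells, 2 were higher: AKR1B1, an aldose reductase that also reduces retinal, and DHRS4, a retinal reductase. Over all genes compared, 14.0% were higher there. After the trend with length was taken off, the log2 ratios in sgRNA-AP1-71 cells were 0.50 for AKR1B1 and 0.29 for DHRS4, both within 1.5-fold. DHRS7 was then lower past 1.5-fold in sgRNA-FOXF1 cells, at -0.59. Its exons overlap those of PCNX4 on the other strand over 895 bases. AKR1B1 was at 247.2 RPKM in sgRNA-AP1-69 cells, 331.1 in sgRNA-AP1-71 cells and 227.8 in sgRNA-FOXF1 cells, against 186.7 RPKM in sgRNA-NT cells. DHRS4 was at 8.1, 8.7 and 7.6 RPKM in that order, against 5.6 RPKM in sgRNA-NT cells. DHRS3, the retinal reductase that retinoic acid is known to raise, lay at the floor in all 4 libraries, as did ALDH1A1, and RDH10, which makes retinal in the embryo, was at 1.1 to 1.8 RPKM in the targeted libraries, against 3.0 RPKM in sgRNA-NT cells. POR, the electron donor of the CYP26 enzymes and the only gene with values of the 5 on breakdown, was at 8.7 RPKM in each targeted library, against 7.6 RPKM in sgRNA-NT cells. The mRNAs of the pathway's production and breakdown steps that could be measured were thus few, and the amount of retinoic acid itself was not measured.

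Of the other receptors that pair with RXRs or share its sites, 14 of 16 had values and 6 were compared. None passed 1.5-fold in sgRNA-AP1-69 cells. In sgRNA-AP1-71 cells, THRA and NR1H2 were higher and PPARD was lower, and in sgRNA-FOXF1 cells, THRA and NR2F2 were higher. Over all genes compared, 14.0% were higher and 14.7% lower in sgRNA-AP1-71 cells, and 11.6% were higher in sgRNA-FOXF1 cells. PPARD lay exactly at the cut of 1.5-fold. After the trend with length was taken off, THRA and NR2F2 were higher in sgRNA-AP1-69 cells, at log2 ratios of 0.75 and 0.69. In sgRNA-AP1-71 cells, NR1H2 and PPARD were then within 1.5-fold, at 0.51 and -0.50, and PPARG was lower at -0.69. The calls in sgRNA-FOXF1 cells stayed the same. THRA, a thyroid hormone receptor, was at 11.2 RPKM in sgRNA-AP1-69 cells, 13.3 in sgRNA-AP1-71 cells and 18.1 in sgRNA-FOXF1 cells, against 7.6 RPKM in sgRNA-NT cells, all above the control. Its exons overlap those of NR1D1 on the other strand over 210 bases. NR1H2, an oxysterol receptor, was at 30.4, 34.6 and 29.0 RPKM, against 22.7 RPKM in sgRNA-NT cells. NR2F2, the orphan receptor COUP-TFII, was at 18.3, 12.0 and 19.7 RPKM, against 13.0 RPKM in sgRNA-NT cells, so that here the enhancer guides lay on either side of the control. PPARD, the receptor that FABP5 serves, was at 7.5, 6.6 and 9.3 RPKM, against 9.9 RPKM in sgRNA-NT cells.

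Some coregulators that RARs hold were lower in the targeted libraries. Of 17 on the list, 16 had values and 9 were compared, of which 0 were higher in any targeted library and 4, 4 and 5 were lower in the cells of sgRNA-AP1-69, sgRNA-AP1-71 and sgRNA-FOXF1, where 9.93%, 14.7% and 13.2% of all genes compared were lower. EP300, a histone acetyltransferase recruited with ligand, was at 1.6 RPKM in sgRNA-AP1-69 cells, 1.0 (the floor) in sgRNA-AP1-71 cells and 1.9 in sgRNA-FOXF1 cells, against 5.1 RPKM in sgRNA-NT cells, and NCOA3, a p160 coactivator, was at 2.7, 2.9 and 2.0 RPKM, against 4.6 RPKM in sgRNA-NT cells. NCOR1, a corepressor held by RARs without ligand, was at 3.1, 3.4 and 2.5 RPKM, against 5.0 RPKM in sgRNA-NT cells. EP300 passed the filter on level only through the sgRNA-NT library, in which it was higher. HDAC3, the deacetylase of the corepressor complex, was at 17.2, 18.1 and 19.0 RPKM, against 13.1 RPKM in sgRNA-NT cells, above the control in each targeted library but within 1.5-fold. Also counted were NCOR1 in sgRNA-AP1-69 and sgRNA-FOXF1 cells, the acetyltransferase gene KAT2A in sgRNA-AP1-71 cells and the Mediator subunit gene MED1 in sgRNA-FOXF1 cells.

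Transcript length moved with this group. The coregulators compared have a median length of 7961 nt, against 2902 nt over all genes compared, and the 6 members have a median of 3024.5 nt. The median log2 ratio of the coregulators was -0.49, -0.56 and -0.85 in the targeted libraries, and -0.17, -0.19 and -0.39 after the trend with length was taken off. After the same step NCOR1 was at -0.17, 0.10 and -0.40, and MED1 at -0.39 in sgRNA-FOXF1 cells, all within 1.5-fold. NCOA3 was at -0.38, -0.19 and -0.75, past 1.5-fold in sgRNA-FOXF1 cells only. EP300 stayed past it at -1.24, -1.82 and -0.93, as did KAT2A at -0.63 in sgRNA-AP1-71 cells. Why these genes differ in this was not tested.

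**Figure D4:**
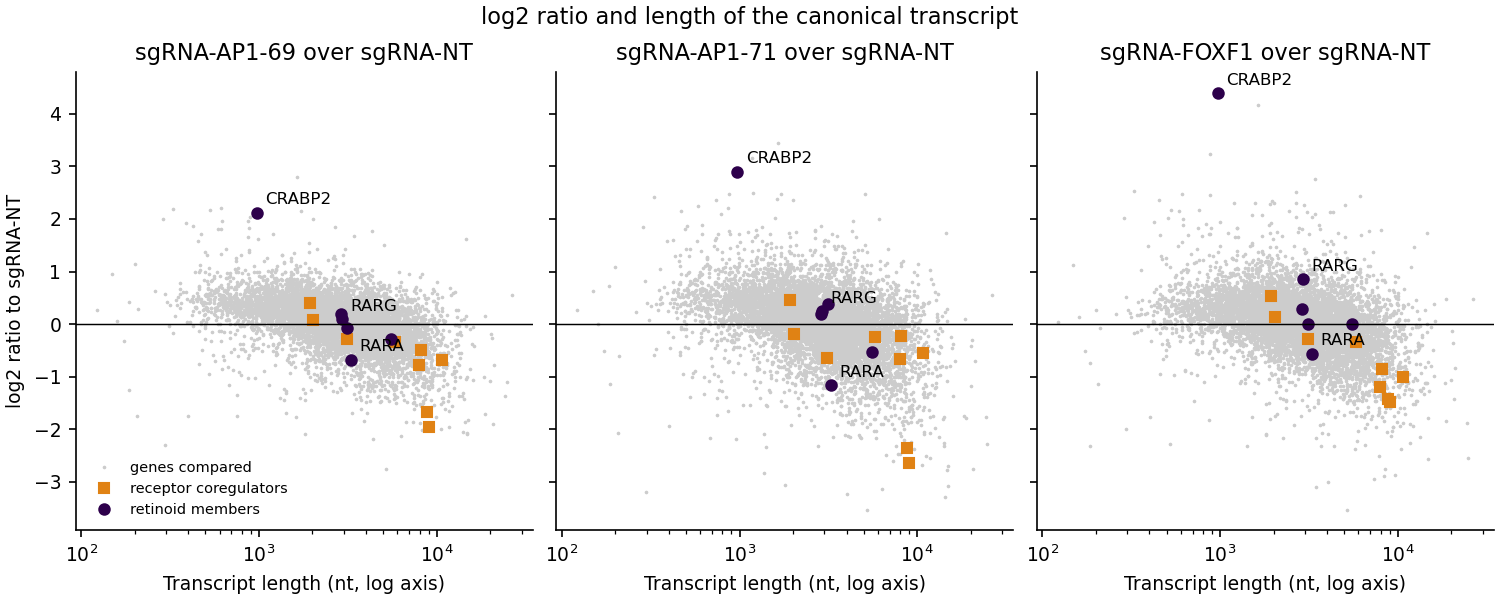
Log2 ratio to sgRNA-NT against the length of the canonical transcript (nt, log axis) for the genes compared (grey), the coregulators (orange squares) and the members (dark circles), 1 panel per targeted library. Ratios fall with length over the grey points, and the coregulators with a median of 7961 nt lie mostly at the long end. CRABP2 at 974 nt ranks 6, 3 and 1 of 7596 genes by ratio in sgRNA-AP1-69, sgRNA-AP1-71 and sgRNA-FOXF1 cells.

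Of genes known to respond to retinoic acid in other cells, 18 of 25 had values and 10 were compared, and they did not move in 1 direction. In sgRNA-AP1-69 cells, 1 was higher (RARRES3) and 4 were lower. In sgRNA-AP1-71 cells, 2 were higher (RARRES3 and ICAM1) and 4 lower, and in sgRNA-FOXF1 cells, 1 was higher (RARRES3) and 4 lower. Over all genes compared, 8.18%, 14.0% and 11.6% were higher and 9.93%, 14.7% and 13.2% lower in that order of libraries. RARRES3, which the annotation calls PLAAT4 and which encodes a phospholipase and acyltransferase first found as a retinoid-induced gene, was at 2.0 RPKM in sgRNA-AP1-69 cells, 3.3 in sgRNA-AP1-71 cells and 4.5 in sgRNA-FOXF1 cells, against the floor of 1.0 RPKM in sgRNA-NT cells. It was at least 2.0-, 3.3- and 4.5-fold higher, in the same order of libraries as CRABP2, but it passed the filter on level only through the libraries in which it was higher. LAMB1, a laminin chain of basement membranes, was at 22.7, 20.2 and 29.0 RPKM, against 44.0 RPKM in sgRNA-NT cells. RAI14, an actin-associated protein named for its induction by retinoic acid, was at 11.7, 9.5 and 6.6 RPKM, against 21.8 RPKM in sgRNA-NT cells. These were below the control in every targeted library, while TGM2, tissue transglutaminase and a widely used retinoic acid target, was at 56.1, 61.5 and 57.4 RPKM, against 58.4 RPKM in sgRNA-NT cells. ICAM1, an adhesion molecule whose exons overlap those of ICAM4-AS1 on the other strand over 815 bases, was at 30.5, 58.3 and 46.8 RPKM, against 37.2 RPKM in sgRNA-NT cells. GPRC5A, a membrane receptor first found as retinoic acid-induced, was at 37.0, 21.4 and 24.2 RPKM, against 45.3 RPKM in sgRNA-NT cells. Neither gene had both enhancer guides past 1.5-fold. The remaining lower genes were ANGPTL4 with both enhancer guides, SMAD3 in sgRNA-AP1-69 and sgRNA-FOXF1 cells, and GPRC5A in sgRNA-AP1-71 and sgRNA-FOXF1 cells. The median log2 ratio of the 10 genes was -0.31, -0.47 and -0.30 in the targeted libraries. It was -0.26, -0.24 and -0.33 after the trend with length was taken off. LAMB1 and GPRC5A in sgRNA-FOXF1 cells and SMAD3 in sgRNA-AP1-69 cells were then within 1.5-fold, at -0.33, -0.55 and -0.46. Between sgRNA-FOXF1 and the enhancer guides, 4 of the 34 list genes were higher (RARRES3, ANGPTL4 and EP300 among them) and 1 was lower (RAI14). Over all genes compared, 5.86% were higher and 3.54% lower there.

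The genes most like CRABP2 were sought among 5094 genes whose mean reached 5 RPKM, by the Euclidean distance over the 3 log2 ratios to sgRNA-NT. KRT34, a hair keratin, was nearest at a distance of 0.89, with 22.3 RPKM in sgRNA-AP1-69 cells, 16.6 in sgRNA-AP1-71 cells and 57.5 in sgRNA-FOXF1 cells, against 3.2 RPKM in sgRNA-NT cells. G0S2, an inhibitor of the fat-cleaving enzyme ATGL, was next at 1.45, with 22.5, 48.1 and 81.3 RPKM, against 8.7 RPKM in sgRNA-NT cells. KRT34 shares with CRABP2 the highest level in sgRNA-FOXF1 cells but has its enhancer guides in the other order, whereas G0S2 has the whole order of CRABP2. RPS23P8, a pseudogene of a ribosomal protein whose reads cannot be told safely from those of its parent gene, was at a distance of 1.93, with 5.9, 6.9 and 7.5 RPKM, against 1.3 RPKM in sgRNA-NT cells. NNMT, which methylates nicotinamide, followed at 2.16 with 8.8, 11.3 and 10.9 RPKM, against 2.2 RPKM in sgRNA-NT cells. LUM, which encodes the collagen-binding proteoglycan lumican, followed at 2.21 with 8.3, 7.9 and 13.1 RPKM, against 2.3 RPKM in sgRNA-NT cells. KRT34, RPS23P8, NNMT and LUM were under 5 RPKM in sgRNA-NT cells, so they passed the filter on level only through the targeted libraries. All 5 were higher in each targeted library than in sgRNA-NT cells, which the measure of likeness and this filter favour. None is of the retinoid lists, which were written from general knowledge, and whether these genes respond to retinoic acid was not tested. Of these genes, only NNMT held a receptor half-site within 250 bases upstream, and none held the AP-1 or forkhead letters among those with a promoter searched.

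**Figure D5:**
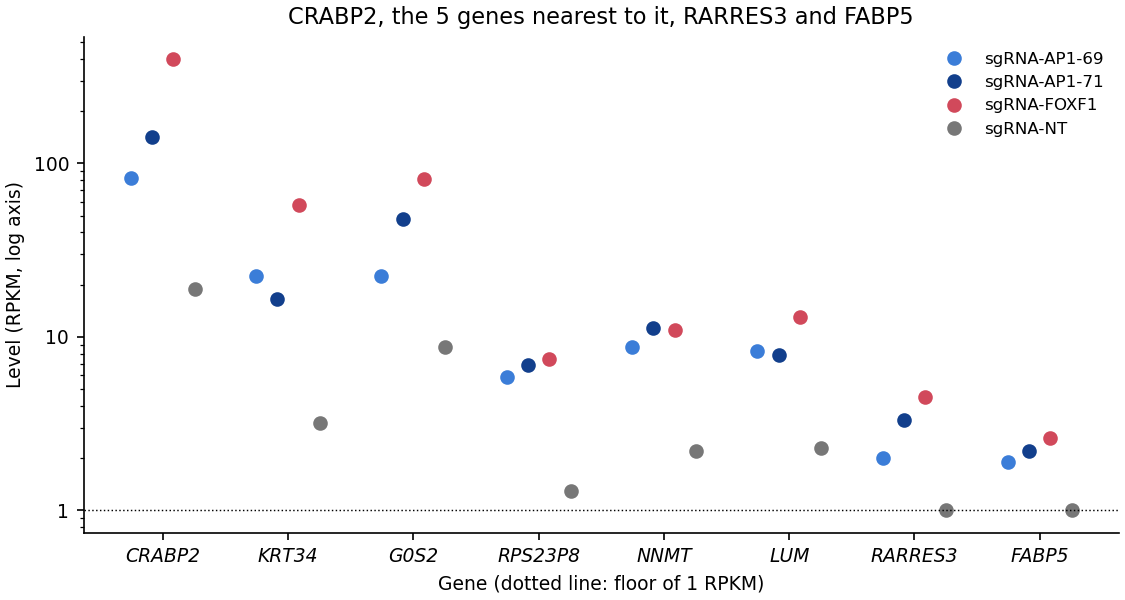
Levels (RPKM, log axis) of CRABP2, the 5 genes nearest to it, RARRES3 and FABP5 in the 4 libraries, with the floor of 1 RPKM dotted. In each gene the 3 targeted libraries lie above sgRNA-NT, and CRABP2 spans the widest range, from 19.0 to 398.8 RPKM.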

How the data were processed

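RNA was measured in 4 libraries, 1 per sgRNA, and each was grouped by its label. The authors aligned single reads to hg19 with TopHat2, obtained counts for each gene from HTSeq-count, turned these into RPKM on GENCODE gene models and quantile-normalized the libraries. Tool versions were not given in the sources used here. Deposited RPKM values have 1 decimal and a floor of 1. The authors also deposited 3 columns of log2 ratios to sgRNA-NT, which were not used. The sources name different RNA reagents and library kits.

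Log2 ratios were computed from RPKM without a pseudocount for 7596 genes whose mean reached 2 RPKM, and a difference was counted at 1.5-fold. Ratios against the floor are bounds. With 1 library per group there was no test, and precision is limited to rounding (0.05 RPKM). Lengths, coordinates and upstream sequences came from GENCODE 44 lifted to GRCh37. Length was corrected by a cubic spline with 5 knots. The members and lists were chosen with earlier results of these data known. Named genes were all members, list genes at least 1.5-fold in 1 direction in all 3 targeted libraries, FABP5, DHRS3, the 5 genes most like CRABP2, FOXF1 and HRAS, apart from some genes that are not reported here. Alternatives were a pseudocount of 1, centred ratios, a floor of 2 RPKM, a mean of at least 5 RPKM, no filter, a 2-fold rule and length-corrected ratios. Python 3.11.15, numpy 2.4.6, pandas 2.3.3 and matplotlib 3.10.9 were used.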

Additional observations from a re-analysis of the deposited data

How the results depend on the processing

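Of 268 values recomputed under alternatives, 239 stayed within the spread of the enhancer guides or within 1.5 times the count, 29 moved and 0 reversed. Part of this was fixed by construction. A stricter filter leaves the ratio of a gene that passes it unchanged, as does a floor of 2 RPKM for values above it. Only log2 values past 1.5-fold could be labelled reversed, and counts never could. The tally is thus no measure of how robust the results are. With length-corrected ratios, CRABP2 was at 1.79 in sgRNA-AP1-69 cells, 2.53 in sgRNA-AP1-71 cells and 4.07 in sgRNA-FOXF1 cells, and among the wider retinoid lists 3 genes were higher and 5 lower in sgRNA-AP1-69 cells and 3 higher in sgRNA-AP1-71 cells. On the log2(RPKM + 1) scale, 0 members were lower in sgRNA-AP1-69 cells. With ratios centred on the median of all genes, 2 members were lower in sgRNA-AP1-71 cells (RARA and RXRA), 1 in sgRNA-FOXF1 cells (RARA), and 3 list genes were higher in sgRNA-AP1-71 cells. With a mean of at least 5 RPKM, 0 members were lower with either enhancer guide, the median of the members left was 0.86 in sgRNA-FOXF1 cells and 0.69 for sgRNA-FOXF1 over the enhancer guides, and of the list genes 0 were higher and 4 lower in sgRNA-AP1-69 cells, 5 lower in sgRNA-FOXF1 cells and 1 higher for sgRNA-FOXF1 over the enhancer guides, since fewer genes are compared. With no filter on level, 3 list genes were higher in sgRNA-AP1-69 cells and 14 lower in sgRNA-FOXF1 cells, and with a floor of 2 RPKM 0 were higher in sgRNA-AP1-69 cells. Under the 2-fold rule, 0 members were lower in sgRNA-AP1-69 cells and 1 was higher in sgRNA-FOXF1 cells and for sgRNA-FOXF1 over the enhancer guides. Under that rule 2 list genes were lower in sgRNA-AP1-69 cells, 1 was higher and 5 lower in sgRNA-AP1-71 cells, and 0 were higher and 0 lower for sgRNA-FOXF1 over the enhancer guides. The cause was not tested where the construction of the alternative does not give it. No paired analysis was possible because each group has 1 library, and no library could be left out of its group for the same reason. The floor limits RARB, FABP5, RARRES3 and EP300, and depth is unknown.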

Other observations

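Nuclear receptors outside the retinoid lists were looked up after the data were seen. Of 27, 7 had values and 3 were compared. NR2F6, an orphan receptor related to the COUP transcription factors, was at 15.1 RPKM in sgRNA-AP1-69 cells, 12.2 in sgRNA-AP1-71 cells and 19.6 in sgRNA-FOXF1 cells, against 21.4 RPKM in sgRNA-NT cells. NR1D1, the circadian repressor REV-ERB alpha whose exons overlap those of THRA, was at 2.8, 3.0 and 5.0 RPKM, against 4.4 RPKM in sgRNA-NT cells. ESRRA, an orphan receptor of energy metabolism, was at 12.9, 12.0 and 13.5 RPKM, against 13.6 RPKM in sgRNA-NT cells. NR3C1, the glucocorticoid receptor, was at 1.4 to 1.8 RPKM in the targeted libraries, against 1.9 RPKM in sgRNA-NT cells.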
